A study of Homo sapiens with 3 samples.

Results

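The 9 genes described here carry the type I interferon response from its ligand to its targets: the ligand gene IFNB1, the receptor genes IFNAR1 and IFNAR2, STAT2 and IRF9 of the transcription factor complex ISGF3, the interferon regulatory factors IRF1 and IRF7, and the target genes ISG15 and MX1. They were chosen by symbol from 22824 genes, and the count of a gene is that of its transcript record with the largest total. RNA was sequenced from MDA-MB-231, a human breast cancer cell line that carries the p53 missense change R280K. All 3 libraries (n = 3) belong to 1 group, in which cells received 50 nM control siRNA on 2 occasions 24 h apart and were taken 48 h after the second. The labels call the libraries biological replicates and say no more of their source, so the spread given below may in part be technical. The study's p53 siRNA arm is not analysed here, so the libraries show the baseline of the transfected line and no effect of a treatment. None of them is untransfected, so any part of the transfection in the levels cannot be told apart.

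Type I interferons are secreted by cells that sense viral nucleic acid, and they act on a receptor built from IFNAR1 and IFNAR2. The receptor's kinases TYK2 and JAK1 phosphorylate STAT proteins, of which STAT2 joins IRF9 in ISGF3. This complex binds a promoter element called the interferon-stimulated response element (ISRE) and raises transcription of antiviral genes, whereas other STAT complexes bind a different element, the gamma-activated site (GAS). IRF7 and IRF1 are themselves interferon-induced transcription factors, and in breast cancer cells such genes can be transcribed without added interferon.

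Promoter sequence was available for 7 of the 9 genes, from RefSeq on GRCh38.p14, as windows of 300 bases from 250 before to 50 after an annotated start site. The ISRE core was searched as GAAA, any 2 bases and GAAA again, and the GAS as TTCNNNGAA, each on both strands. An ISRE match was present in 3.57% of all 35116 windows and a GAS match in 7.66%. The stretches below carry the matches of 4 of these genes, in capitals, in the direction of transcription. The matches describe the letters of the reference and were not tested for binding.
ISG15 (chr1:1013347-1013422, plus strand): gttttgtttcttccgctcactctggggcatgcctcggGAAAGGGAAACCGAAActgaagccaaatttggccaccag
MX1 (chr21:41420559-41420588, plus strand): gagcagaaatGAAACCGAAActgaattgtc
IRF1 (chr5:132490799-132490923, minus strand): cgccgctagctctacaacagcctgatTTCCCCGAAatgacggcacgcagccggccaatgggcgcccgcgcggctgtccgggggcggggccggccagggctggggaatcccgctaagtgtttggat
IRF9 (chr14:24161191-24161220, plus strand): gaccacgtgatTTCTGGGAAaaggccctcc

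The ISG15 stretch holds 2 overlapping ISRE matches, which begin 113 and 107 bases before the start site, and the MX1 stretch holds 1 that begins 11 bases after it. The 2 genes share an unbroken run of 15 bases, GAAACCGAAACTGAA, found in 2 of the 35116 windows, those of ISG15 and MX1 themselves. It was picked as the longest run common to these 2 stretches, so both hits were fixed in advance. How often other runs of 15 bases recur was not tested, so its rarity says little. IRF1 and IRF9 each have a GAS match, at 124 and 63 bases before the start, and no ISRE match in the window. A further MX1 window, at another annotated start site, has an ISRE match 196 bases before the start and a GAS match 189 bases before it. The IFNB1 window has a GAS match 218 bases before the start. Neither motif was spelled in the windows of IFNAR1 or STAT2.

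In every library 8 of the 9 genes lay at or above 1 CPM, the count divided by the scaled library size in units of 1000000, against 55.6% of all genes. The exception was the ligand. Levels are given below in TPM, which corrects counts for transcript length, and they place the members in a wide order: ISG15, IRF1, STAT2, IRF9, IFNAR1, IRF7, IFNAR2 and MX1. The median detected gene (1 CPM or more in each library) was at 23.1 TPM, with ISG15, IRF1, STAT2 and IRF9 above it. The lengths come from GENCODE 29 transcripts, and those of the transcript models used for counting are not given in the sources used here. Gene and exon positions are from the same annotation, on GRCh38, whereas the files were made on hg19.

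**Figure D1:**
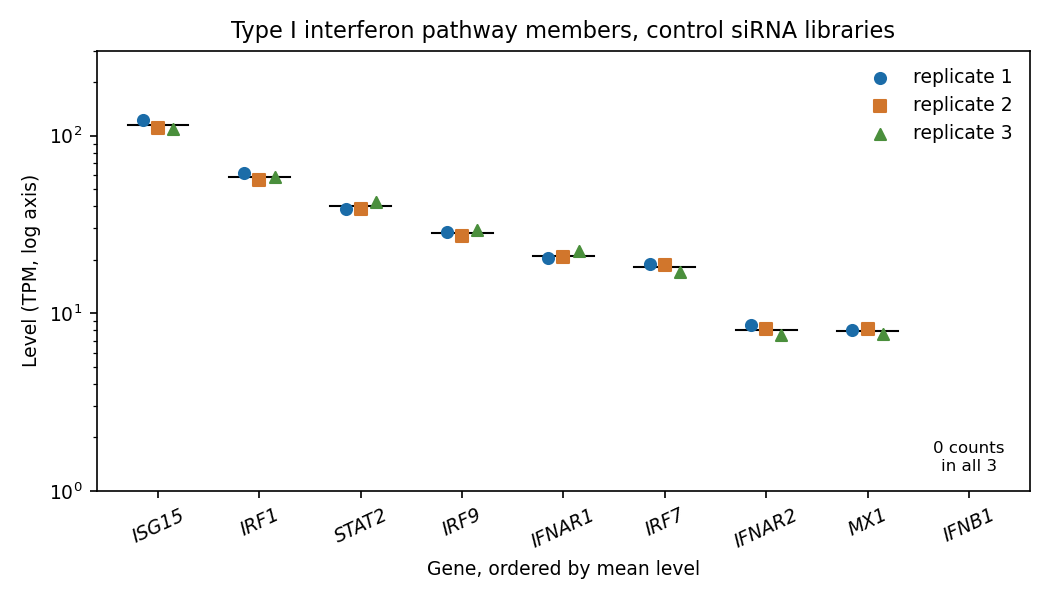
Level of each gene in TPM (log axis) in replicates 1, 2 and 3, with a line at the mean. The 3 libraries of a gene lie close together and ISG15 and IRF1 stand highest, while IFNAR2 and MX1 overlap between 7.65 and 8.18 TPM and IFNB1 had 0 counts.

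IFNB1 (Entrez gene 3456; chr9:21077105-21077963, 1 exon) encodes interferon beta. It had 0 counts in each library. With both mates of a read pair counted, 3 pairs would give 6 counts, so IFNB1 could still have lain at up to 0.243, 0.194 and 0.307 TPM in replicates 1, 2 and 3, limits that cover counting error only. Other ligands were as low. Of 21 interferon ligand genes, which include 13 interferon alpha genes, IFNG and the interferon lambda genes, 20 had 0 counts in all 3 libraries. The exception was IL29, an interferon lambda gene, with 6 counts in replicate 2 and 0 in the other two. The alpha genes are near-identical copies and how reads with several matches were handled is not stated, so their zeros are uncertain.

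The receptor genes were both transcribed, at unequal levels. IFNAR1 (3454; chr21:33324477-33359862, 11 exons), the lower-affinity chain that recruits TYK2, stood at 20.3, 20.6 and 22.3 TPM in replicates 1, 2 and 3, on 3588, 4556 and 3120 counts. IFNAR2 (3455; chr21:33229901-33265675, 9 exons in the long form), the high-affinity chain, stood at 8.54, 8.16 and 7.54 TPM, on 712, 851 and 497 counts. Every IFNAR1 value lay above every IFNAR2 value. IFNAR1 exceeded IFNAR2 by 1.39 ± 0.16 in log2 TPM (SD, n = 3), a 2.61-fold difference, positive in 3 of 3 libraries. When all records of a gene were added up the difference was 0.09 and did not keep 1 sign. With the shortest transcripts, on unchanged counts, it was 3.0. An exact sign-flip permutation over 3 libraries cannot give a two-sided p under 0.25, and the 11 of 12 differences tested here that kept 1 sign in every library had that p (adjusted p = 0.273 over 12). No difference could therefore pass a threshold, and their size is best read against their SD. Some of the 12 are between neighbours in the order of mean TPM, and that order set their direction.

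The records of IFNAR2 differed in count. The long record (2899 bases, 515 coding residues) held the 712, 851 and 497 counts given above. A short record (1389 bases, 331 coding residues), whose receptor has a truncated intracellular part, held 500, 641 and 364 counts, or 70.2%, 75.3% and 73.2% of the long record. Since records of the other members held nearly equal counts, reads in shared exons seem to enter every record of a gene, so the forms were not counted apart. The long record exceeded the short one by 212, 210 and 133 counts. The long form has 1779 bases not found in the short one, which has 269 of its own, so this difference is a lower limit on the counts from the stretch specific to the long form, and the levels of the 2 forms cannot be read from it.

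**Figure D2:**
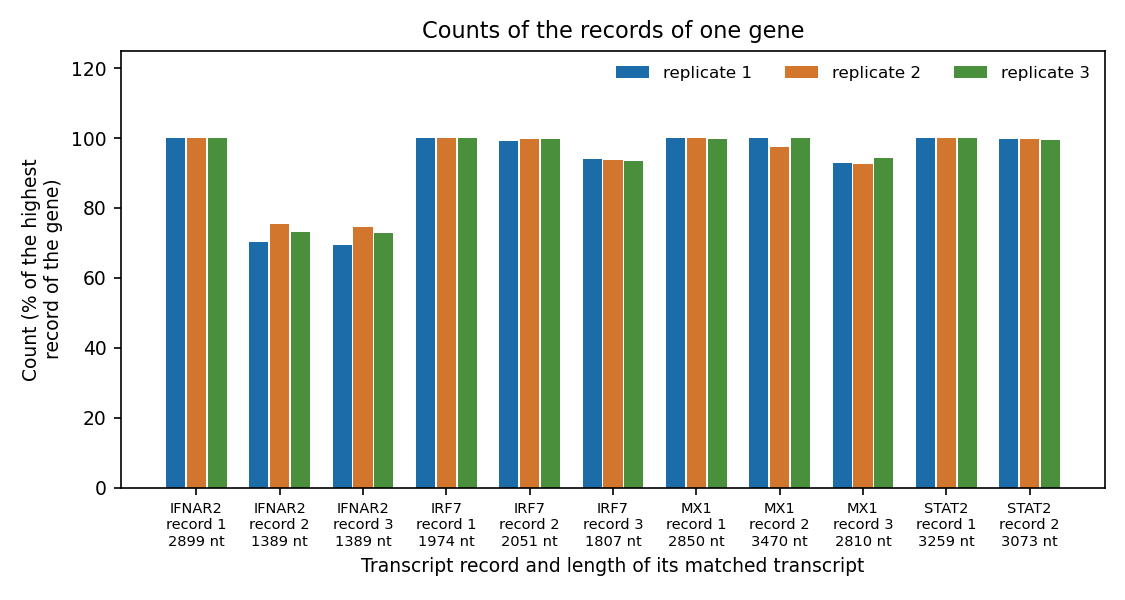
Count of each transcript record as a percentage of the highest record of its gene, in replicates 1, 2 and 3, with the length of the matched transcript in nucleotides (nt). The records of STAT2, IRF7 and MX1 all hold 92.5% or more, while the short IFNAR2 records lie between 69.5% and 75.3% of the long one.

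For the other genes with several records the forms could not be told apart by count. The 2 STAT2 records held 3631 and 3624 counts in replicate 1, and the lower of the 3 IRF7 records held 94.0%, 93.8% and 93.5% of the highest. The lowest of the 3 MX1 records held 92.9%, 92.5% and 94.4%. IFNAR2 exons are overlapped over 90.3% of their length by a read-through gene on the same strand and by an antisense gene, and IRF9 exons over 100% by a read-through gene. Opposite-strand genes, among them C5orf56, overlap 16.2% of IRF1 and a single one 8.28% of MX1. The strand setting of the counting is not stated, so reads of these partners cannot be separated from those of the members.

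By RNA level in TPM, the kinase genes of the receptor stood above the receptor genes. TYK2, which sits on IFNAR1, was at 83.7 ± 4.07 TPM and JAK1, which sits on IFNAR2, at 69.9 ± 2.36 TPM. JAK1 differed from TYK2 by -0.26 ± 0.10 in log2 TPM and was lower in 3 of 3 libraries. This rests on the length correction, since in CPM the difference was -0.04 and JAK1 was the higher in replicate 3, at 151 against 143 CPM. JAK2, the kinase of the interferon gamma receptor, was at 6.45 ± 0.694 TPM. All 9 genes of the receptor and kinase list were detected, with IFNGR2 next at 40.1 ± 0.807 TPM and the interferon lambda receptor gene IL28RA lowest at 2.36 ± 0.298 TPM. The list median was 22.1 TPM, close to the 23.1 TPM of all detected genes.

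Of the ISGF3 genes, STAT2 and IRF9 lay on neighbouring levels. STAT2 (6773; chr12:56341597-56360155, 24 exons), the subunit that carries the transactivation domain, was at 38.7, 38.5 and 42.5 TPM, on 3631, 4512 and 3148 counts. It was highest in replicate 3, and the other libraries lay close to each other. IRF9 (10379; chr14:24161053-24166565, 9 exons), the subunit that recognises the ISRE, was at 28.6, 27.2 and 29.2 TPM, on 1512, 1797 and 1221 counts. The 2 ranges did not overlap, and STAT2 exceeded IRF9 by 0.49 ± 0.05 in log2 TPM. With the shortest annotated transcript of each gene, on unchanged counts, the difference turned to -0.09.

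Of the 7 signal transducer genes analysed, which include STAT2 and IRF9, 6 were detected. STAT3 and STAT6, both transducers of interleukin signals, were at 106 ± 3.89 and 56.5 ± 1.06 TPM. STAT4, a transducer of lymphocytes, was the lowest of the 7 at 0.332 ± 0.0639 TPM.

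The interferon regulatory factors differed widely in level. IRF1 (3659; chr5:132481609-132490798, 10 exons), a short-lived activator, was at 61.5, 55.8 and 58.5 TPM, on 6329, 7191 and 4763 counts. IRF7 (3665; chr11:612553-615999, 11 exons), which amplifies interferon production, was at 18.9, 18.7 and 17.1 TPM, on 1075, 1331 and 770 counts. Every IRF1 value lay above every IRF7 value, with a log2 difference of 1.68 ± 0.10, or 3.21-fold, although with counts summed over records the difference was 0.13. IRF3, the factor that is present before infection and starts interferon production, was at 71.2 ± 4.28 TPM and exceeded IRF7 by 1.96 ± 0.03 in log2 TPM. Of the 8 genes of the family analysed 5 were detected, namely IRF1, IRF2, IRF3, IRF7 and IRF9. The others were low, with IRF5 at 0.951 ± 0.165 TPM, IRF4 on 2, 8 and 10 counts, and IRF8 without a count.

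The target genes ISG15 and MX1 lay at opposite ends of the order. ISG15 (9636; chr1:1001138-1014540, 2 exons in the transcript counted), a ubiquitin-like protein that is attached to other proteins, was at 123, 111 and 109 TPM, on 2251, 2543 and 1581 counts. MX1 (4599; chr21:41420304-41459214, 17 exons), a GTPase that restricts viruses such as influenza, was at 8.02, 8.18 and 7.65 TPM, on 658, 839 and 496 counts. Both have the shared ISRE run shown above, and ISG15 exceeded MX1 14.4-fold, by 3.84 ± 0.09 in log2 TPM. With the shortest annotated transcript of each gene this difference was 0.50 on the same scale. That setting changed the length and kept the counts, which took MX1 from 7.95 to 78.7 TPM, so it is an outer bound. Without length correction, in CPM, ISG15 ran from 28.9 to 32.9 and MX1 from 9.06 to 9.90. ISG15 ranked 1637 from the top among 18526 genes with a count and a length, and MX1 ranked 9602.

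Neighbours in the order were mostly separate. These pairs were taken from the order in the same libraries, higher minus lower, so a positive mean was set by the sorting. ISG15 exceeded IRF1 by 0.96 ± 0.06, IRF1 exceeded STAT2 by 0.56 ± 0.10, IRF9 exceeded IFNAR1 by 0.43 ± 0.06 and IRF7 exceeded IFNAR2 by 1.18 ± 0.03 in log2 TPM, each without overlap of the 3 libraries. IFNAR1 exceeded IRF7 by 0.21 ± 0.15, also without overlap, but the SD is close to the difference. IFNAR2 and MX1 overlapped, with a difference of 0.02 ± 0.06 that was positive in 1 of 3 libraries (exact sign-flip permutation, two-sided, p = 1). The place of ISG15 and of IRF9 in the order depends on length as well, since on the log2 scale in CPM ISG15 minus IRF1 was -1.53 and IRF9 minus IFNAR1 was -1.31.

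The machinery that attaches ISG15 was transcribed as well. The E2 conjugating gene UBE2L6 was at 73.3 ± 2.42, the E1 activating gene UBA7 at 20.9 ± 0.369 and the E3 ligase gene HERC5 at 18.5 ± 1.76 TPM. USP18, which removes ISG15 and dampens signalling at IFNAR2, was lowest, at 1.80, 2.13 and 1.76 TPM. All 5 genes of this list were detected. Among 8 negative regulators, also all detected, the phosphatase genes PTPN11 and PTPN1 led at 179 ± 9.66 and 104 ± 3.04 TPM, SOCS3 followed at 30.8 ± 1.40 and SOCS1 stood at 3.30 ± 0.191 TPM.

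ISG15 and MX1 are part of a wider set of interferon targets, of which 43 of 45 were detected, against 55.6% of all genes. The list median was 20.2 TPM, beside 23.1 TPM for detected genes and 9.08 TPM for genes with a count. The set spanned IFITM3, a membrane protein that blocks viral entry, at 388 ± 9.46 TPM, and BST2, which tethers budding virus, at 294 ± 1.79 TPM, down to the nucleotide kinase gene CMPK2 at 0.436 ± 0.0612 TPM. ISG15 followed and MX1 lay in the lower part, while its paralogue MX2 was at 0.926 ± 0.130 TPM. STAT2, IRF9 and IRF7, which are also interferon targets, lay in the middle. CXCL10, a chemokine gene, and CMPK2 were the 2 genes not detected.

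**Figure D3:**
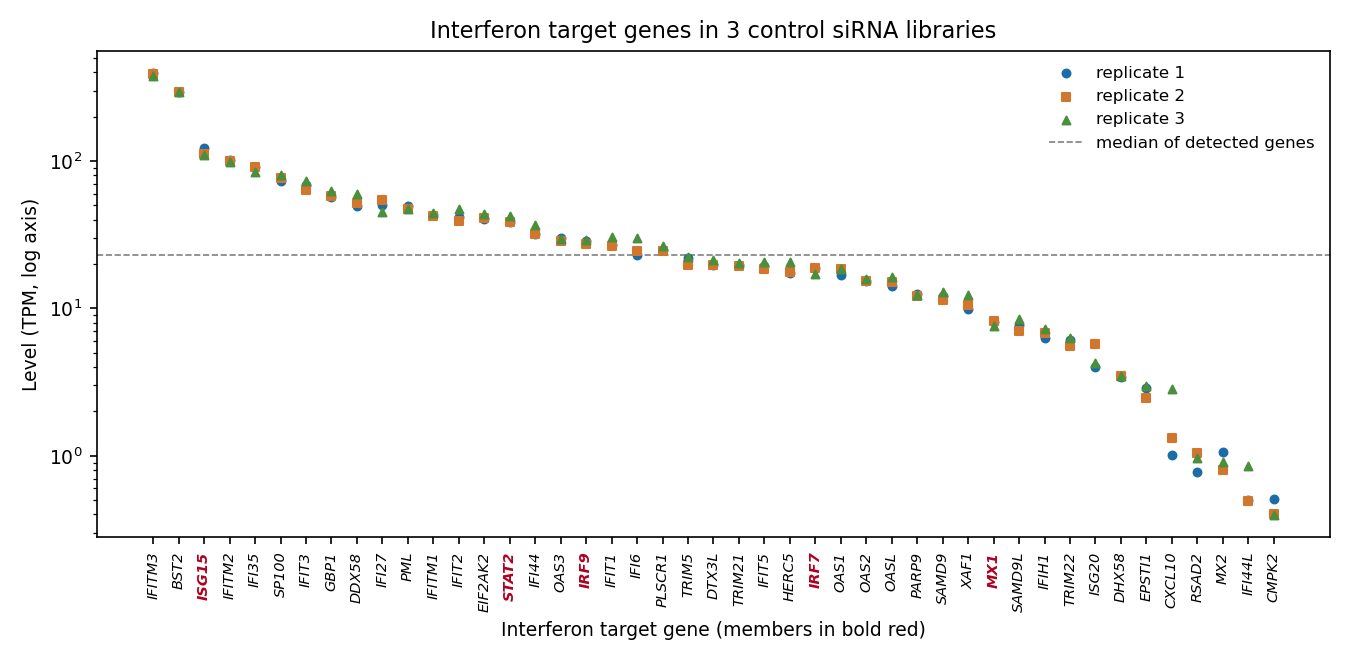
Level of 45 interferon target genes in TPM (log axis) in the 3 libraries, ordered by mean, with the members in bold red and the median detected gene as a dashed line at 23.1 TPM. IFITM3 and BST2 stand above ISG15, 21 genes lie above the dashed line, and MX1 lies between 7.65 and 8.18 TPM.

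Promoter windows were found for 35 of these 45 targets, and 27 (77.1%) held an ISRE match, against 4.38% of 27305 genes. The match nearest to a start site lay at a median of 51 bases from it, and 17 genes had more than 1. The 27 genes with a match had a median level of 21.3 TPM and the 8 without one, STAT2 and IRF9 among them, of 23.1 TPM. Levels from 0.616 TPM (IFI44L) to 388 TPM (IFITM3) occurred among the genes with a match. The motif was thus shared by targets at very different baseline levels.

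**Figure D4:**
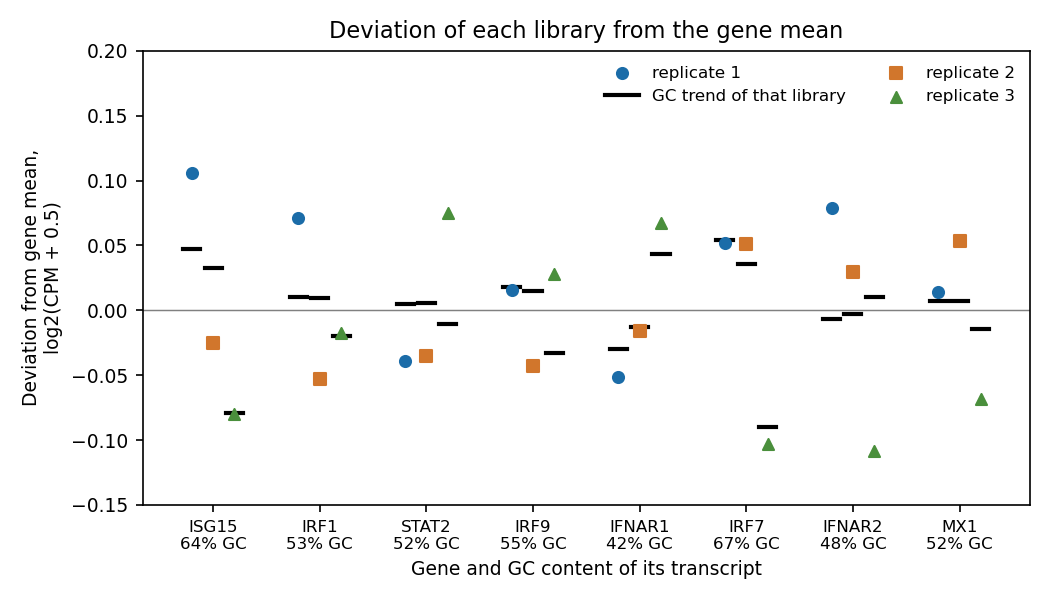
Deviation of each library from the gene's mean, in log2(CPM + 0.5), for the 8 members with counts, with the shift that the library's trend with GC content gives at the gene's own GC content (black bars). All deviations lie between -0.11 and 0.11, and those of IRF7 and IFNAR1 run along the bars.

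The members were steady between libraries, within 1.15-fold from lowest to highest CPM for every member with a count. By the deviance of an edgeR fit against counting noise (adjusted p under 0.05, Benjamini-Hochberg over 14432 genes), 5 of the 8 members tested varied, against 53.0% of all genes. They were IRF1 (adjusted p = 1.23e-05), ISG15 (0.00045), STAT2 (0.00307), IFNAR1 (0.00687) and IRF7 (0.0492). Counts appear to include both mates of a read pair. With each pair counted once, 2 of 8 varied (28.5% of all genes), ISG15 with an adjusted p of 0.0407 and IRF1 with 0.0081. With a coefficient of variation of 0.05 allowed between cultures, 0 of 8 varied in edgeR (1.12% of all genes), and 0 had an unadjusted p under 0.05. That allowance is close to the value estimated from these same libraries, 0.0544, so few calls were possible and the 0 is no separate sign of steadiness. The members' share was near that of all genes under the first 2 rules.

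The direction of these small differences was not shared. IRF1 was at 92.5, 84.8 and 87.0 CPM in replicates 1, 2 and 3. ISG15 was at 32.9, 30.0 and 28.9 CPM, so both were highest in replicate 1. STAT2 at 53.1, 53.2 and 57.5 CPM and IFNAR1 at 52.4, 53.7 and 57.0 CPM were highest in replicate 3, where IRF7 was lowest at 15.7, 15.7 and 14.1 CPM. Without replicate 1, IRF1 (adjusted p = 0.304) and ISG15 (0.361) no longer varied in edgeR. Without replicate 3, STAT2 (0.951), IFNAR1 (0.464) and IRF7 (0.991) did not, and without replicate 2, IFNAR2 did (0.0432).

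Base composition moved with part of this. IRF7 has a GC content of 66.7%, and its deviations of 0.05, 0.05 and -0.10 lay beside library trends of 0.05, 0.04 and -0.09 at that GC content. IFNAR1, at 42.3% GC, deviated by -0.05, -0.02 and 0.07 beside trends of -0.03, -0.01 and 0.04. With the trends removed, 3 of 8 members varied (40.0% of all genes), namely IRF1 (adjusted p = 3.68e-05), STAT2 (0.000779) and ISG15 (0.0455), while IRF7 was at 0.899 and IFNAR1 at 0.529 in edgeR.

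Markers of the labelled line were abundant. VIM, KRT8, KRT18 and CD44 summed to 6126, 6223 and 5802 TPM, and ESR1, PGR and CDH1 to 0.927, 0.625 and 0.472 TPM. Of 5 leukocyte markers 2 were detected, LYZ at 13.9 ± 1.65 and CD14 at 2.64 ± 0.212 TPM, and the list summed to 15.1, 17.4 and 19.0 TPM. PTPRC had 52, 87 and 92 counts, and CD3E and ITGAX at most 4 each. Markers of plasmacytoid dendritic cells, the main producers of interferon alpha in blood, included 1 detected gene of 4, TCF4 at 14.4 ± 1.38 TPM. CLEC4C had 0 counts, LILRA4 at most 5 and IL3RA 3, 11 and 0. The part of these cell types in the members' values was not tested. Gene counts summed to 68664126, 84880547 and 54512366 in replicates 1, 2 and 3.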

How the data were processed

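The authors deposited raw counts per RefSeq transcript record, 1 file per library. FastQC, TopHat2, Cufflinks and hg19 are named per the submitters' processing notes; the counting tool, versions and strand setting are not given in the sources used here. TruSeq libraries were read as pairs of 100 bp, per the labels' protocols. Copies of a record were summed, unnamed records were matched by accession (those left unmatched held 0.952%, 0.959% and 0.944% of counts), and a gene took its largest record. TPM used the GENCODE 29 transcript paired with the record (a length was found for 98.9% of genes that had any count). TMM scaling was done in edgeR 4.0.16 (R 4.3.3), with the filter filterByExpr. Variation between libraries was the deviance of an intercept-only fit with dispersion 0 against a chi-square with 2 degrees of freedom; with 1 group no contrast exists. Genes with exactly 2 counts (712 in replicate 1) outnumbered those with 1 (485), so halving the deviance stood for each pair counted once. On simulated data of 14432 genes with paired mates, the test of variation made 805 false calls undivided and 14 halved. Of genes set to differ 1.25-fold it recovered 90% undivided and 76% halved, and at 1.5-fold 88% and 74%. Recovery at the smaller ranges of the members, at most 1.15-fold, was not tested. Nor was halving tested on data where only some counts are paired. DESeq2 1.42.0 gave an alternative dispersion. GC trends were splines with 5 degrees of freedom. Python 3.11.15 and scipy 1.17.1 were used.

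The members, the 7 pathway lists and the tests were chosen with earlier results of these data known. Genes named are the members, JAK1, JAK2, TYK2, IRF3 and the ISG15 enzymes, the 3 highest and the lowest of each list, up to 3 varying genes of widest range per list, and the nearest genes in level and pattern; others (IFI44L, SOCS1, MX2, IRF5 and the absent genes) were chosen after their values were seen. Some genes of the lists are not reported here and are left out of the counts over lists. Alternatives covered scaling, filters, length, records, pseudocounts, GC and each library left out; removing the GC trend with pairs counted once was added after seeing the data.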

Additional observations from a re-analysis of the deposited data

How the results depend on the processing

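The count of members that varied, 5 as first computed, was 2 with each read pair counted once, 3 with the GC trend removed, 1 with both, 0 with a coefficient of variation of 0.05 allowed, and between 2 and 6 with 1 library left out. Over all genes the corresponding numbers were 7656 (53.0%), 4119 (28.5%), 5722 (40.0%), 2165 (15.1%) and 161 (1.12%). Without replicate 1, 2 or 3, the members that varied were 3, 6 and 2 of 8, beside 37.8%, 39.2% and 24.2% of all genes. Other scalings gave 5 of 8 (RLE) and 4 of 8 (total count), each beside 53.1%. No filter gave 5 of 8 (44.2%), and a mean of 10 CPM or more gave 5 of the 6 tested (67.5%). The sum over records gave 6 of 8 (62.4%). Of 120 recomputed level differences, 108 kept their direction. Part of this was fixed in advance: a pseudocount or a library left out cannot turn the 11 differences of 1 sign. The settings that can turn them are those of length, CPM and records. Size moved more often than direction: over the alternatives IFNAR1 minus IFNAR2 ran from 0.0915 (counts summed over records, not 1 sign) to 3.0, IRF1 minus IRF7 from 0.129 to 3.05, IRF3 minus IRF7 from 1.16 to 3.31, ISG15 minus MX1 from 0.502 to 3.94, IRF7 minus IFNAR2 from 0.554 to 1.69 and JAK1 minus TYK2 from -3.39 to -0.0433 (CPM, not 1 sign). In CPM, ISG15 minus IRF1 was -1.53 and IRF9 minus IFNAR1 -1.31. With the shortest transcript, STAT2 minus IRF9 was -0.0894, ISG15 minus IRF1 -1.81, IRF9 minus IFNAR1 -1.56 and IFNAR2 minus MX1 -1.29. This setting kept the counts of the largest record, so IFNAR1 rose from 21.1 to 257 TPM, and its values are outer bounds. With counts summed over records, IRF1 minus STAT2 was -0.44, IFNAR1 minus IRF7 -1.35 and IFNAR2 minus MX1 -0.23; this counts a read once per record and so raises genes with several records. IFNAR2 minus MX1 was also -0.26 with the longest transcript and -0.35 with the smallest record, and ran from -0.0129 to 0.0426 with 1 library left out. The smallest-record setting kept the length of the largest record, so the -0.35, and the 1.16 of IRF3 minus IRF7, mix 2 records. Per kilobase of its own transcript, the smallest IFNAR2 record held 356, 457 and 261 counts in replicates 1, 2 and 3. The smallest MX1 record held fewer, 217, 276 and 167. The median coefficient of variation of the members was 0.054 in edgeR and 0.0581 in DESeq2. No paired analysis was possible because there is 1 group.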

Other observations

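Of the 45 interferon targets, 15 ranged further between libraries than any member did, the widest member being IFNAR2 at 1.15-fold from lowest to highest CPM. The share of all genes beyond that range was not computed, and counting noise widens the range of genes with few counts. Some of the 15 varied against counting noise and others did not, such as CMPK2 (1.29-fold, edgeR adjusted p = 0.576) and MX2 (1.31-fold, 0.262). CXCL10 was at 34, 56 and 76 counts (0.497, 0.661 and 1.39 CPM). It was the single one of 45 interferon targets to vary with a coefficient of variation of 0.05 allowed (edgeR, adjusted p = 0.000905). Among all genes 161 of 14432 (1.12%) did so, and 1 call among 45 says little about the targets as a set. The chemokine gene was highest in replicate 3, as was IFI44L at 1.24, 1.23 and 2.08 CPM (adjusted p = 0.0514 under the same allowance). The leukocyte gene PTPRC ran the same way, at 0.760, 1.03 and 1.68 CPM (adjusted p = 0.0123), and its part in the CXCL10 values was not tested. The other leukocyte markers were not uniform. LYZ was also highest in replicate 3, at 7.88, 9.11 and 9.88 CPM. CD14 was highest in replicate 2, at 1.67, 1.97 and 1.84 CPM, and CD3E and ITGAX had 0 counts in replicate 3. ISG20, an exonuclease gene, was highest in replicate 2, at 3.11, 4.49 and 3.29 CPM (adjusted p = 0.0784). With this allowance the mates of a pair were still counted separately, so these adjusted p-values may be too small. CXCL10 also rests on few counts, with a counting error of 18.4%, and lay below 1 CPM in replicates 1 and 2.

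By level and pattern over the 3 libraries, measured as root mean square distance in log2(CPM + 0.5), the gene nearest to STAT2 among 14432 was SMNDC1 (0.0063) and that nearest to MX1 was CXXC5 (0.0115). STAT2 was itself among the 3 genes nearest to IFNAR1 (0.0147). ISG15 lay nearest to STK11IP (0.0244), IRF1 to ADAMTS1 (0.0226), IRF9 to SUPT3H (0.0140), IRF7 to C1orf122 (0.0156) and IFNAR2 to C1orf86 (0.0197). With 3 libraries such nearness is common, and 322 genes lay within 0.1 of STAT2.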
